A study of Mus musculus with 12 samples.

Results

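The comparison described here set neurons with the control hairpin shControl2 against neurons with the control hairpin shControl1, across all genes and across all editing sites with enough reads. It used 4 samples, 2 per hairpin, of the 12 libraries and 10 samples of the series. All were primary cortical neurons of C57BL/6J mice, taken at stage E16.5, infected the day after seeding with lentivirus that carried an shRNA in the pGreenPuro backbone and harvested 7 days after dissection. The virus was made in 293T cells, and the cultures received no other stated agent. The remaining groups carried hairpins against Adar (shAdar1), Adarb1 (shAdar2) or Zfr (shZfr). In the study's design shControl2 was the baseline of shZfr, and shControl1 was the baseline of shAdar1 and shAdar2, so the difference between the baselines bears on any comparison across them. The labels call the 2 samples of a group biological replicates, without saying whether they came from separate cultures or days. Gene p-values rest on the spread between such replicates within all 5 groups, and site p-values on that within the control groups alone. The sources used here do not say whether the hairpins were tested side by side on one day, or how many embryos went into each culture.

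A short hairpin RNA is cut by Dicer into a small duplex, of which one strand guides an Argonaute protein to transcripts. A control hairpin is chosen to have no intended target, but any guide strand can lower transcripts that match its first bases in their 3' untranslated regions (3' UTRs), and lentiviral infection and culture conditions act on neurons too. RNA editing by ADAR enzymes turns adenosines within double-stranded stretches into inosines, which sequencing reports as G, and the share of G among the A and G reads at a site is its editing level.

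The control cultures differed across much of the transcriptome. Of 14785 genes tested, 6367 (43.1%) passed edgeR's quasi-likelihood test at a false discovery rate under 0.05 after Benjamini-Hochberg adjustment and are called here. Of these, 2937 genes (19.9% of those tested) were higher and 3430 (23.2%) were lower in shControl2. The median log2 fold change was 0.94 among the genes called higher, −0.80 among those called lower and −0.05 over all tested genes. At least 2-fold changes were found for 1362 of the called genes that were higher and 1191 that were lower. The samples of the hairpins did not overlap at 11527 genes (78.0%), 6365 of them called.

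Samples of one hairpin lay much closer together than samples of different hairpins. The median absolute log2 difference per gene was 0.158 between the shControl2 samples and 0.187 between the shControl1 samples, against 0.457 to 0.579 for the 4 pairs across hairpins. More than 2-fold differences were seen at 2.08% of genes within shControl2 and 4.26% within shControl1, against 19.0% to 26.4% across hairpins. Between group means, the median difference of shControl2 from shControl1 was 0.502, and shControl1 lay nearer to shAdar1 (0.293) and about as far from shAdar2 (0.514) and shZfr (0.525). shControl2 lay nearest to shZfr (0.40) and shAdar1 (0.413) and farthest from shAdar2 (0.696). Leaving out 1 control sample left 3574 to 5163 calls, with the fewest without shControl2 replicate 2.

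Each control hairpin stood outside all other samples of the series at some of the called genes. At 1575 called genes (24.7% of calls) shControl2 lay below all 8 other samples of the series, and at 1023 (16.1%) above all of them. Genes at which both controls stood outside, such as Napb and Trhr, are counted for shControl2 only, so the full numbers for shControl1 are larger. Among the rest, shControl1 lay below all 8 other samples at 664 called genes (10.4% of calls) and above all of them at 696 (10.9%). At the remaining 2409 called genes neither control stood outside the other samples.

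Gene tables held 22112096 and 24504844 expected counts in shControl2 samples and 24545963 and 29671858 in shControl1 samples. The precursor ribosomal RNA Rn45s took 1.67% and 4.76% of counts in shControl2 and 1.96% and 2.21% in shControl1, and leaving it out gave 6369 calls. With libraries scaled by their totals alone in place of TMM factors, the median over all genes moved to −0.24, and 2086 genes were higher and 4872 lower, so that 30.0% of calls were higher in place of 46.1%. Changes given below are on the TMM scale, and gene levels are counts per library total adjusted by TMM factors (CPM) unless TPM, which also divides by transcript length, is named.

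Words of 7 bases in the 3' UTRs are shown first, since partial matches to a guide strand would lie there. The words TCCCGTT and TAATGAT had come up in earlier results of these data, so their standing here is a description. Among 5819 tested genes with a 3' UTR of 1000 to 3000 bases, 14632 words were each held by at least 100 genes. Ranked by the difference in median log2 fold change between genes with and without the word, TCCCGTT was the lowest (median −0.26 over 204 genes with it, 0.03 without it). TAATGAT was the highest (0.34 over 681 genes with it, −0.02 without it). Words near them in rank partly overlap them, such as GTCCCGT at the low end and AATGATA at the high end, while another word at the low end, CGACAGC, does not.

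The genes shown hold these words and were chosen by size of change among called genes with 5 CPM or more in the higher group. The choice was limited to genes that stood below all other samples in 1 hairpin: in shControl2 for TCCCGTT and in shControl1 for TAATGAT. Some genes were left out beforehand by their place in the genome, so genes with larger changes may be missing. For TAATGAT, genes at which shControl2 also lay above all other samples were left out. This pattern chose the genes shown and is no result. Genes left out that hold TAATGAT, such as Trhr and Trove2, changed more than some of those shown. Each line gives 30 bases of a gene's longest annotated 3' UTR (GENCODE M21, GRCm38), on the transcript strand and 5' to 3', with the 7-base word in capitals. The first 4 genes were lower in shControl2 and hold TCCCGTT, and the other 4 were higher in shControl2 and hold TAATGAT.
Gpr27: tttcccttctgTCCCGTTgtctggtttttc
Rnf141: attctggtatgTCCCGTTcttaaataaact
Napb: ccaaatcttttTCCCGTTcttttgatattt
Lsm10: cacctctaacgTCCCGTTtctttttggcat
Mbnl3: tgtgcagtgacTAATGATcttattgaagaa
Abca8a: ttgtcacagatTAATGATacttcattgtaa
Dpy19l1: aagttcacatgTAATGATtggaaattctgt
Bmp7: agaagccactgTAATGATatgtcacaataa

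Rnf141, a RING finger gene on chromosome 7, had 6.44 and 7.81 CPM in shControl2 and 40.5 and 41.2 CPM in shControl1, with 13.6 to 25.6 CPM in the 6 knockdown samples (log2 fold change −2.52 ± 0.16 SE, edgeR adjusted p = 1.79e-05). Napb, which encodes an attachment protein that helps to disassemble SNARE complexes after vesicle fusion, had 66.4 and 56.1 CPM in shControl2 and 338 and 317 CPM in shControl1, with 150.0 to 244 CPM elsewhere (−2.42 ± 0.13, adjusted p = 1.33e-05). Both genes were also higher in shControl1 than in every other sample, a trait that choosing by the largest change favoured. Dpy19l1, on chromosome 9, had 103 and 129 CPM in shControl2 and 21.3 and 17.3 CPM in shControl1, with 42.7 to 104 CPM elsewhere (2.59 ± 0.15, adjusted p = 1.53e-05). Abca8a, a transporter of the ABC family on chromosome 11, had 28.9 and 34.8 CPM in shControl2 and 3.92 and 3.61 CPM in shControl1, with 14.0 to 39.5 CPM elsewhere (3.08 ± 0.27, adjusted p = 6.06e-05).

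TCCCGTT was held by 5.68% of 3065 genes called lower, 2.97% of 2663 called higher, 3.15% of 7407 not called and 3.70% of all 13135 tested genes with a 3' UTR. Among the 1403 genes called lower at which shControl2 lay below all other samples the share was 6.99%, and among the other 1662 called lower it was 4.57%. TAATGAT was held by 22.9% of genes called higher, 4.96% of those called lower, 9.34% of those not called and 11.1% of all. Of genes called higher, 614 had shControl1 below all other samples without shControl2 above them, and the share there was 20.2%. At the other 2049 called higher, some of them with shControl1 below all other samples too, it was 23.7%. The median 3' UTR lengths of these sets were 1822 and 2472 bases, and the difference in share was not tested. Median 3' UTR length was 2324 bases for genes called higher, 991 bases for those called lower and 1404 bases for those not called, and a longer UTR holds any AT-rich word more often. The sources used here do not give the guide sequences of the hairpins, so no word was matched to a hairpin.

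Among the editing enzymes and Zfr, the call of Zfr held with any 1 control sample left out, whereas those of Adar and Adarb1 did not. Zfr, whose product binds double-stranded RNA through zinc fingers, had 422 and 496 CPM in shControl2 and 290 and 268 CPM in shControl1, with 173 to 323 CPM in the knockdown samples. Zfr was thus higher in shControl2 than in any other sample (0.72 ± 0.11, adjusted p = 0.00089).

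Adar, which encodes ADAR1, had 139 and 118 CPM in shControl2 and 153 and 192 CPM in shControl1 (−0.42 ± 0.13, adjusted p = 0.025). The call was lost without shControl2 replicate 2 (adjusted p = 0.212) and without shControl1 replicate 2 (adjusted p = 0.191). Adarb1, which encodes ADAR2, had 99.4 and 92.0 CPM in shControl2 and 122 and 118 CPM in shControl1 (−0.33 ± 0.12, adjusted p = 0.046). That call was lost without any 1 of the 4 samples (adjusted p = 0.100 to 0.248), and with DESeq2 (adjusted p = 0.0909). Adarb2, a family member without known catalytic activity, had 82.1 and 87.2 CPM in shControl2 and 65.1 and 50.5 CPM in shControl1 and did not pass (0.55 ± 0.26, adjusted p = 0.11), whereas it passed when only the 4 control samples were fitted (adjusted p = 0.00543).

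Of 20 tested genes that have been linked to editing regulation, 5 were higher and 4 lower in shControl2 (median −0.17), a share called near the 43.1% of all genes. With libraries scaled by their totals, 4 were higher and 11 lower. The count called lower was 2 without shControl1 replicate 2 or without either shControl2 sample. Trove2, which encodes the RNA-binding protein Ro60, had 721 and 895 CPM in shControl2 and 103 and 98.7 CPM in shControl1 (3.00 ± 0.20), and the call held under every alternative tried. It ran from 40.5 CPM in a shAdar2 sample to 570.1 CPM in a shZfr sample elsewhere, so shControl2 lay above every other sample and shControl1 within their range. Sfpq, a paraspeckle protein, was higher (0.66 ± 0.10), and Rps14, a ribosomal protein that has been reported to bind ADAR2, was lower (−1.77 ± 0.18), as were most ribosomal protein genes. Of 15 tested genes for double-stranded RNA sensors and binders, 1 was higher and 2 lower, and the sensor genes Ifih1 (0.34 ± 0.52) and Ddx58 did not pass. Of 15 genes for small RNA processing and silencing, 5 were higher and 3 lower, and 2 higher and 5 lower with libraries scaled by their totals. Ago3, an Argonaute gene, had 84.2 and 104 CPM in shControl2 and 42.3 and 48.1 CPM in shControl1 (1.05 ± 0.15), while Tsn and Tsnax, whose products form the C3PO nuclease, were lower (−0.71 ± 0.09 and −1.19 ± 0.11). Dicer1 did not pass (0.26 ± 0.12). The silencing genes called higher numbered 2 without shControl1 replicate 1 and 3 without shControl2 replicate 2, and with libraries scaled by their totals 6 of the 15 genes for sensors and binders were lower.

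**Figure D1:**
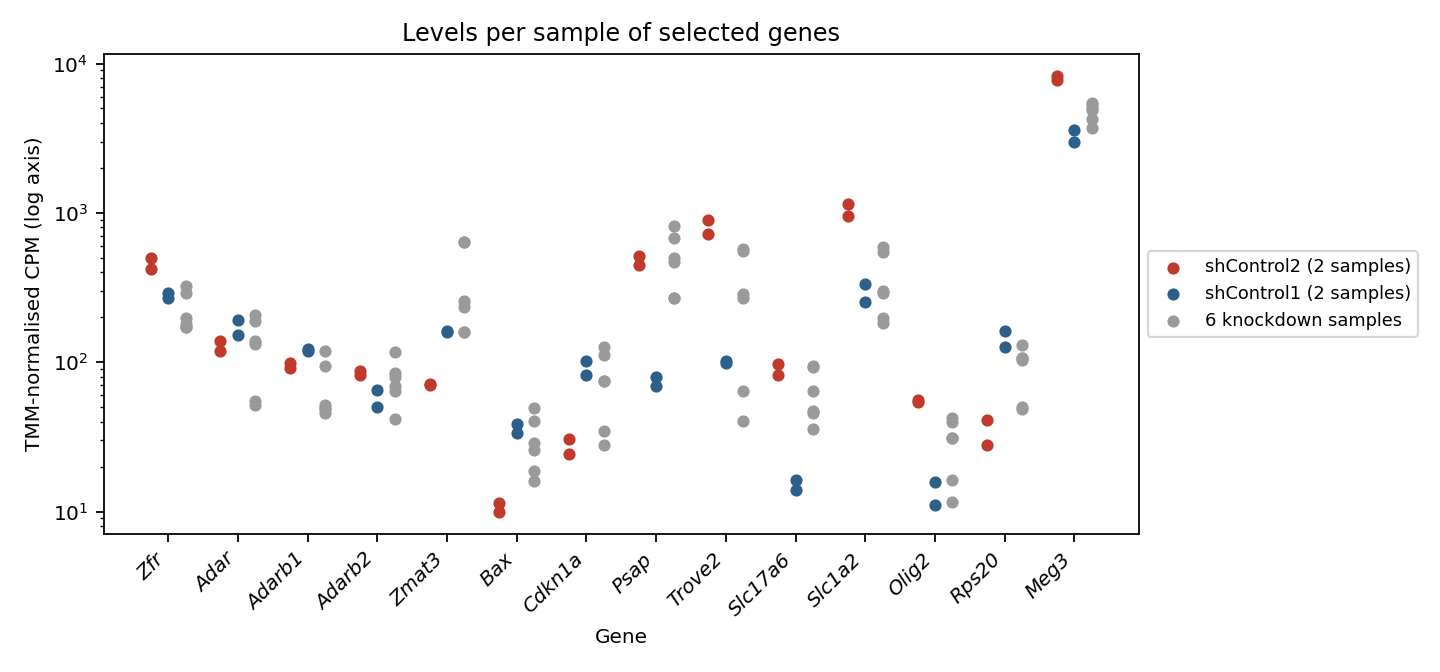
Level of 14 genes in each sample as TMM-normalised CPM on a log axis, with the 2 shControl2 samples (red), the 2 shControl1 samples (blue) and the 6 knockdown samples (grey). Zfr, Trove2, Meg3 and Slc1a2 were highest in shControl2, Zmat3, Bax and Rps20 were lowest in shControl2, and Psap and Slc17a6 were lowest in shControl1.

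Editing was lower in shControl2 neurons over the tested sites as a whole. Tested sites, 989 in number, had 20 or more reads per control sample, and over the 4 samples 5 or more reads with each base. Over them the mean editing level was 12.6% and 11.8% in the shControl2 samples and 18.8% and 18.6% in the shControl1 samples. The group means were 12.2% ± 0.546 in shControl2 and 18.7% ± 0.149 in shControl1 (SD, n = 2 each), a difference of −6.49 percentage points. The samples did not overlap, and the exact two-sided permutation p was 0.333, the smallest that 2 against 2 samples can give. Over all 3852 sites with 20 or more reads per control sample, of which 1994 had no edited read in any of them, the means were 3.39% and 3.18% in shControl2 and 5.11% and 5.07% in shControl1. Listed sites had 642035 and 662707 reads in shControl2 and 498000 and 565076 reads in shControl1, so the shControl2 libraries were read more deeply at these sites.

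The difference was spread over many places. The mean level of the shControl2 samples was the lower one at 839 of the 989 sites. Both shControl2 samples were below both shControl1 samples at 524 sites (53.0%), and above them at 42 (4.25%). Sites lie in clusters, here joined where at most 10 kb apart, and editing of neighbouring sites is not independent. Of 378 clusters with a tested site, 337 had a lower mean in shControl2 and 41 a higher one, and of the 51 clusters with at least 5 tested sites, 48 had a lower mean, 40 of them with no overlap between the hairpins. The median difference of these 51 clusters was −5.49 percentage points.

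**Figure D2:**
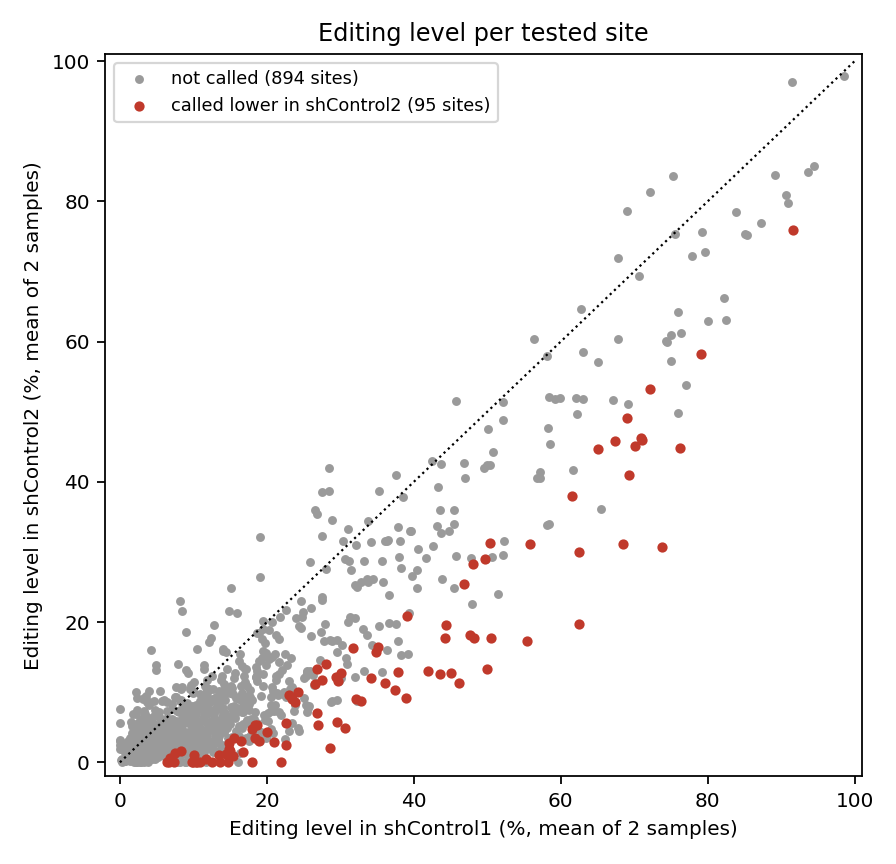
Editing level of each of 989 tested sites as the mean of the 2 shControl2 samples (vertical axis, %) against the mean of the 2 shControl1 samples (horizontal axis, %), with equality dotted and called sites in red. Most sites lie under the line of equality, 839 of 989, and all 95 called sites are lower in shControl2.

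Site by site, 95 of 989 (9.61%), in 67 clusters, were called lower in shControl2 at an adjusted p under 0.05 and 0 were called higher (edgeR quasi-likelihood test, with 279 lower and 6 higher at an unadjusted p under 0.05). A beta-binomial test called 2 sites higher. The median difference at the called sites was −18.2 percentage points. The number of site calls depends on the test and on all 4 samples: 8 sites were called lower without shControl1 replicate 1, and 0 without any other control sample. With a replicate block 6 sites were called lower, and with bias-adjusted deviances 0.

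The site on chromosome 3 at position 80496208 (mm9) had the lowest adjusted p, and was among the sites with the most reads. It was edited at 51.7% (603 reads) and 40.7% (675 reads) in shControl2 and at 68.7% (514 reads) and 73.0% (549 reads) in shControl1 (−24.6 percentage points, adjusted p = 0.000286). Its call held without shControl1 replicate 1 and was lost without any other control sample. The pooled level there was 49.0% in shAdar1, 20.7% in shAdar2 and 20.8% in shZfr, so shControl2 lay between shControl1 and the lower groups. On the same chromosome, position 80510834 was edited at 98.1% and 97.6% in shControl2 and at 98.0% and 99.0% in shControl1, and did not pass. The site with the most reads, on chromosome 17 at position 39980697, was edited at 19.1% and 19.0% in shControl2 and at 16.6% and 22.2% in shControl1, and did not pass either.

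The largest called decreases came from sites with fewer reads. On chromosome 12 at position 25739515 the level was 19.1% (42 reads) and 42.4% (33 reads) in shControl2 and 66.7% (27 reads) and 80.8% (26 reads) in shControl1. On chromosome 14 at position 13307570 it was 19.2% (47 reads) and 15.5% (58 reads) in shControl2 and 50.0% (26 reads) and 60.9% (23 reads) in shControl1. Decreases of 32.4 to 42.8 percentage points were also called on chromosome 8 at position 74900659, chromosome 4 at 21838814, chromosome 6 at 8981072, chromosome 17 at 24698931, chromosome 11 at 36394278 and chromosome 9 at 21487225. Each of these 8 calls was lost without any 1 of the 4 samples. The positions are on mm9, for which no annotation was at hand, so sites were not assigned to genes.

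The lower level in shControl2 was seen for sites of either enzyme, as far as the knockdowns sort them. At 390 sites whose pooled level in shAdar1 was more than 2-fold under that in shAdar2, the mean level was 11.4% ± 0.821 in shControl2 and 17.7% ± 0.235 in shControl1. At 267 sites whose pooled level in shAdar2 was more than 2-fold under that in shAdar1, it was 10.8% ± 0.127 in shControl2 and 17.5% ± 0.776 in shControl1. At 232 sites whose levels in both knockdowns were within 2-fold, it was 15.0% ± 0.799 in shControl2 and 20.5% ± 0.401 in shControl1. The differences of the classes, from −5.55 to −6.70 percentage points, did not differ in sign, and their difference from each other was not tested. The remaining 100 sites, with under 20 reads in a knockdown, averaged 12.7% ± 0.685 in shControl2 and 21.2% ± 0.608 in shControl1, a difference of −8.54 percentage points. Adar and Adarb1 levels, given above, were lower and Zfr was higher in shControl2, and the part of these levels in the difference in editing was not tested.

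Transcript length moved with the direction of change across the whole transcriptome. Length here is that given for each gene in the deposited tables. Of 145 tested genes with transcripts under 500 bases, 69.0% were called lower in shControl2 and 0.69% higher, with a median log2 fold change of −1.29. Of 907 genes at 500 to 1000 bases, 55.1% were lower and 2.54% higher. At 1000 to 2000 bases, 34.9% of 3214 genes were lower and 7.13% higher. At 2000 to 4000 bases the calls were nearly balanced, with 20.2% lower and 18.7% higher among 6199 genes. Of 614 genes over 8000 bases, 8.14% were lower and 41.5% higher, with a median of 0.29.

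The share of counts on short transcripts sorted the samples into a low and a high set. Without Rn45s and Malat1, transcripts under 1000 bases took 1.84% and 1.56% of counts in shControl2 and 3.76% and 3.30% in shControl1. The shZfr samples were close to shControl2, at 1.92% and 1.87%, and the shAdar1 and shAdar2 samples, at 3.31% to 4.23%, were close to shControl1. Transcripts of 4000 bases or more took 61.5% and 62.2% in shControl2 and 53.6% and 55.0% in shControl1, with 60.3% in both shZfr samples. The labels give no preparation date or batch, so handling of the RNA and the hairpin cannot be told apart, and the part of transcript length in the changes of the gene lists below was not tested.

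**Figure D3:**
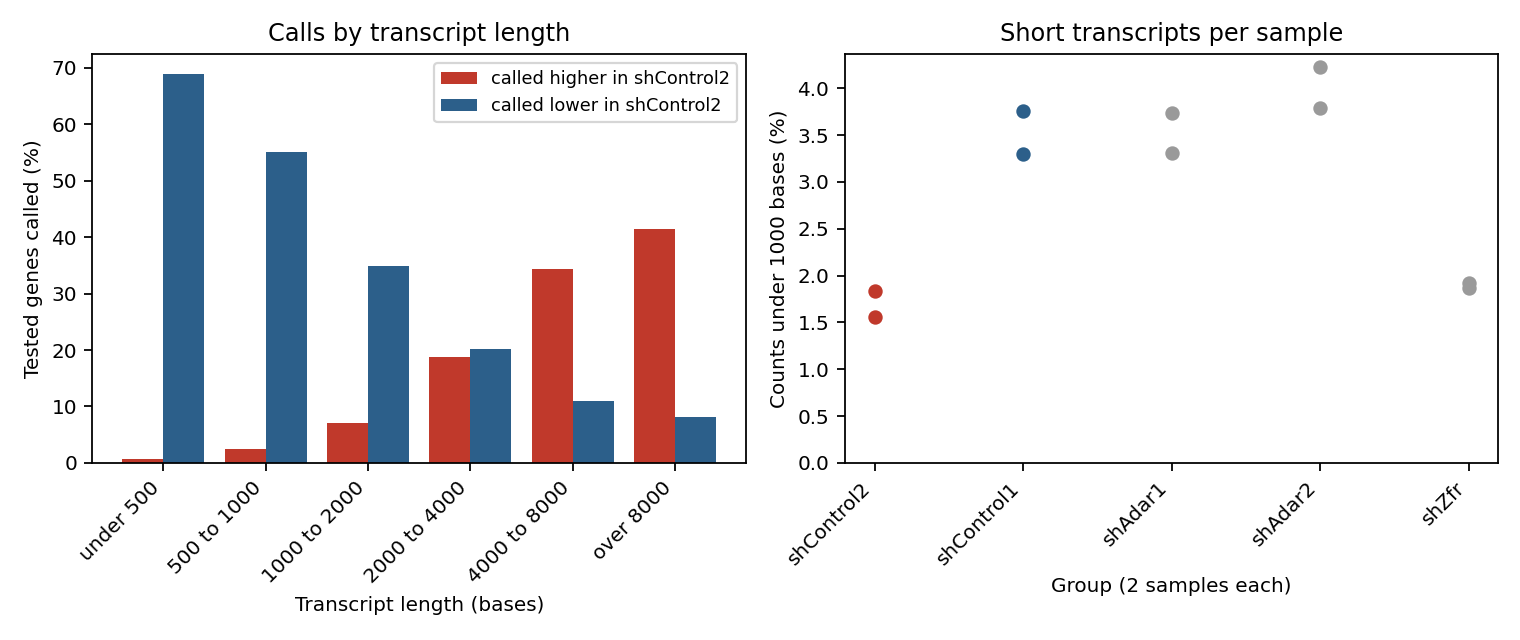
Left, share of tested genes called higher (red) and lower (blue) in shControl2, by transcript length in bases; the share called lower falls from 69.0% of the shortest genes to 8.14% of the longest, and the share called higher runs from 0.69% to 41.5%. Right, share of counts on transcripts under 1000 bases in each sample, without Rn45s and Malat1; shControl2 and shZfr samples lie between 1.56% and 1.92% and the others between 3.30% and 4.23%.

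In several families with shorter transcripts, the called genes were nearly all lower in shControl2. Cytosolic ribosomal protein genes, whose products build both ribosomal subunits, were lower at 76 of 79 tested members and higher at 0, with a median of −1.10 and a median transcript length of 684 bases. Rpl7 had 114 and 108 CPM in shControl2 and 323 and 296 CPM in shControl1, against 176 to 251 CPM elsewhere (−1.48 ± 0.10, adjusted p = 1.97e-05). Rps20 had 41.2 and 27.9 CPM in shControl2 and 162 and 127 CPM in shControl1 (−2.06 ± 0.19). Many ribosomal protein genes have processed copies in the genome, and how the authors' counting split reads between them is not known here. Mitochondrial ribosomal protein genes were lower at 61 of 74 and higher at 1 (median −0.81), and proteasome subunit genes at 29 of 38 and 0 (median −0.92, median length 1317 bases).

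Genes of oxidative phosphorylation in the nuclear genome followed the same direction, with 19 of 26 lower and 0 higher (median −0.81). Sdhb, the iron-sulfur subunit of succinate dehydrogenase, had 25.6 and 18.7 CPM in shControl2 and 62.0 and 69.5 CPM in shControl1 (−1.57 ± 0.14, adjusted p = 6.96e-05). Cox5a, a subunit of cytochrome c oxidase, had 46.4 and 33.8 CPM in shControl2 and 114 and 110 CPM in shControl1 (−1.48 ± 0.14). Sdha (−0.11) and Ndufs1 (−0.04) were among the 7 members that did not pass. All Nduf genes together, which encode complex I, were lower at 35 of 44, and genes of the vacuolar proton pump at 12 of 19 with 1 higher. Of these families, 31 listed cytosolic ribosomal protein genes and the 26 oxidative phosphorylation genes were also examined under the alternatives. Their medians were −1.19 and −1.01 with libraries scaled by their totals, and with any 1 control sample left out 28 to 30 of the 31 and 16 to 19 of the 26 were called lower.

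Markers of neurons were abundant in both cultures, and the neuron list moved in both directions. Of 13 pan-neuronal genes, 2 were higher and 3 lower (median −0.05). Map2, a dendritic microtubule protein, averaged 2010 TPM in shControl2 and 1016 TPM in shControl1 and was higher (0.85 ± 0.16). Tubb3, neuronal beta-tubulin, averaged 874 TPM in shControl2 and 1091 TPM in shControl1 and was lower (−0.47 ± 0.12, lost without shControl2 replicate 2 at an adjusted p of 0.128). Rbfox3, the NeuN gene, had 73.6 and 62.3 CPM in shControl2 and 70.9 and 70.05 CPM in shControl1. Of 12 listed microglial genes, 7 were tested and 0 called. Their median log2 fold change was −2.77, at median levels of 0 and 0.0913 CPM in shControl2 and 0.307 and 0.129 CPM in shControl1. When only the 4 control samples were fitted, the list median was 1.21 and 1 gene was called higher. The summed level of those 7 was 14.8 and 16.4 CPM in shControl2 and 15.2 and 12.9 CPM in shControl1. The defining markers Cx3cr1, Tmem119 and Csf1r had 1 to 11 counts over the 4 control samples. Endothelial Cldn5 had 4 counts over the 4 samples.

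Glial genes were higher in shControl2. In bulk RNA more cells of a type and more RNA per cell cannot be told apart. Of 15 tested astrocyte markers, 11 were higher and 0 lower (median 1.41), and the summed level of the list was 2564 and 3039 CPM in shControl2 and 1190 and 818 CPM in shControl1. Slc1a2, the main glutamate transporter of astrocytes, had 959 and 1149 CPM in shControl2 and 335 and 252 CPM in shControl1, against 184 to 595 CPM elsewhere (1.84 ± 0.15). Aldoc, the brain aldolase, had 113 and 141 CPM in shControl2 and 23.5 and 17.0 CPM in shControl1 (2.65 ± 0.42, adjusted p = 0.00098). Gfap, an astrocyte filament, had 11.8 and 15.1 CPM in shControl2 and 23.5 and 12.0 CPM in shControl1 and did not pass (−0.40 ± 0.38). The number of astrocyte markers called higher was 3 without shControl1 replicate 2, 4 without shControl2 replicate 2, 8 without shControl2 replicate 1 and 9 without shControl1 replicate 1.

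Oligodendrocyte lineage markers showed the highest list median, 2.48, with 7 of 11 tested members higher and 0 lower. Gpr17, a receptor of differentiating precursors, had 20.8 and 26.2 CPM in shControl2 and 0.384 and 0.161 CPM in shControl1 (6.45 ± 2.24, adjusted p = 0.042). The transcription factor gene Sox10 had 14.5 and 14.2 CPM in shControl2 and 1.27 and 0.451 CPM in shControl1 (4.08 ± 1.2, adjusted p = 0.021). Both ranged widely among the knockdown samples too, from 0.021 to 27.1 CPM for Gpr17 and from 0.479 to 16.0 CPM for Sox10, and both calls were lost without any 1 control sample (adjusted p = 0.084 to 0.202 and 0.0576 to 0.145). Pdgfra, the growth factor receptor of precursors, had 144 and 167 CPM in shControl2 and 21.2 and 11.3 CPM in shControl1 and missed the threshold (3.26 ± 1.23, adjusted p = 0.056). The summed level of the list was 487 and 492 CPM in shControl2 and 134 and 87.8 CPM in shControl1, with 105 to 441 CPM elsewhere, where replicate 2 of shAdar1 and of shAdar2 stood at 441 and 389 CPM. With 1 control sample left out, 1 to 4 of these markers were called higher, 1 of them without shControl1 replicate 2.

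Called genes of neural progenitors and of dividing cells were all higher in shControl2. Of 16 radial glia genes 9 were higher and 0 lower (median 1.1), and of 21 cell cycle genes 9 were higher and 0 lower (median 1.1), a share called like the 43.1% of all genes but in 1 direction. With libraries scaled by their totals, 6 cell cycle genes were higher and 1 lower. The receptor gene Notch1 had 90.6 and 96.7 CPM in shControl2 and 28.9 and 27.4 CPM in shControl1 (1.73 ± 0.35). Ccna2, cyclin A2, had 30.2 and 34.5 CPM in shControl2 and 9.80 and 7.92 CPM in shControl1 (1.87 ± 0.38, adjusted p = 0.00347). Vim (−0.16) and Eomes (−0.68) did not pass. Without 1 control sample, 1 to 4 of the cell cycle genes and 2 to 6 of the radial glia genes were called higher, with the fewest without shControl1 replicate 2 for the cell cycle list and without shControl2 replicate 2 for the radial glia list. The summed cell cycle level was 750 and 773 CPM in shControl2 and 351 and 305 CPM in shControl1, and both shZfr samples stood above shControl2, at 1159 and 1078 CPM.

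**Figure D4:**
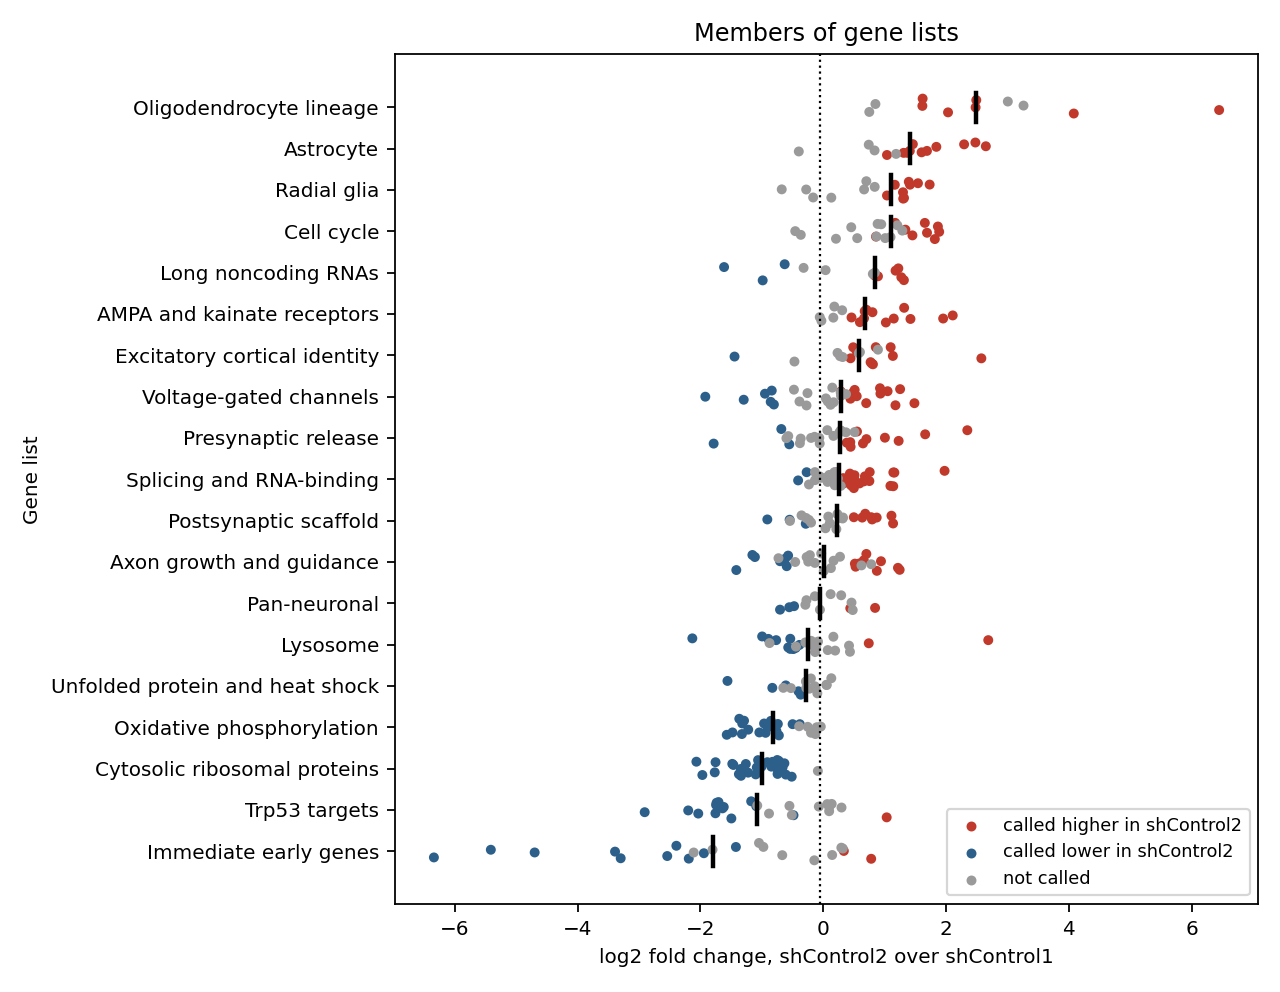
Log2 fold change, shControl2 over shControl1, of each tested member of 19 gene lists (points; red called higher, blue called lower, grey not called), with the list median as a black bar and the median of all genes dotted. Medians run from −1.80 for immediate early genes to 2.48 for the oligodendrocyte lineage.

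Among neuronal subtypes, genes of excitatory cortical identity were higher at 10 of 18 and lower at 1 (median 0.59). Slc17a6, a vesicular glutamate transporter, had 81.8 and 98.0 CPM in shControl2 and 16.3 and 13.9 CPM in shControl1, below the 35.7 to 95.0 CPM of the knockdown samples (2.58 ± 0.19). Slc17a7, its paralogue, had 60 and 43.8 CPM in shControl2 and 21.8 and 26.6 CPM in shControl1 (1.1 ± 0.17). The transcription factor gene Tbr1 was higher (1.13 ± 0.12) and Emx1 lower (−1.44 ± 0.18). Interneuron genes were split, with 6 of 20 higher and 3 lower, a share called near the 43.1% of all genes. The enzyme of GABA synthesis Gad1 was higher (1.14 ± 0.25), and the vesicular GABA transporter Slc32a1 had 27.7 and 24.6 CPM in shControl2 and 39.4 and 32.9 CPM in shControl1 and did not pass (−0.47 ± 0.29). Without replicate 2 of shControl1 or of shControl2, 6 excitatory and 3 interneuron genes were called higher. Interneuron genes called lower numbered 0 or 1 without any 1 control sample.

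Target genes of the transcription factor p53, which halts the cell cycle or starts apoptosis after DNA damage and other stress, were lower in shControl2. Of 24 tested, 13 were lower and 1 higher (median −1.08). The cell cycle inhibitor Cdkn1a had 30.7 and 24.5 CPM in shControl2 and 81.7 and 102 CPM in shControl1, against 27.9 to 127 CPM in the knockdown samples (−1.74 ± 0.16). The apoptosis gene Bax had 11.5 and 9.91 CPM in shControl2 and 33.7 and 38.5 CPM in shControl1, with 16.1 to 49.0 CPM elsewhere (−1.75 ± 0.16). Phlda3 was lower (−2.03 ± 0.18), as was Bbc3, which encodes the apoptosis protein PUMA (−1.74 ± 0.19). For Bax, shControl2 lay under all other samples and shControl1 within their range.

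Zmat3, a zinc finger target of p53 that binds RNA, had 71.8 and 70.2 CPM in shControl2 and 159 and 161 CPM in shControl1 (−1.17 ± 0.09, adjusted p = 3.25e-05). The knockdown samples ran from 160.3 to 642 CPM, so shControl1 matched the shAdar1 samples, at 160.3 and 160.5 CPM, and shControl2 was the lowest group. Rrm2b, a p53-regulated ribonucleotide reductase subunit, went the other way (1.03 ± 0.19). Gdf15, Ccng1 and Trp53inp1 did not pass, at 0.10, 0.14 and 0.07. The count of p53 targets called lower was 11 to 14 with any 1 control sample left out, and 12 of them were lower by more than 1.5-fold in a test against that change.

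Other stress lists had medians nearer to 0. Of 20 genes of the integrated stress response, 6 were lower and 3 higher (median −0.36), a share called near the 43.1% of all genes. The amino acid enzyme gene Asns had 76.7 and 66.8 CPM in shControl2 and 147 and 187 CPM in shControl1 (−1.22 ± 0.25), while the cystine transporter gene Slc7a11 was higher (1.78 ± 0.42). Of 17 genes of the unfolded protein and heat shock responses, 5 were lower and 0 higher (median −0.28), led by the co-chaperone gene Dnajb1 with 16.6 and 14.9 CPM in shControl2 and 41.9 and 50.8 CPM in shControl1 (−1.56 ± 0.14). Interferon-stimulated genes gave 2 higher and 1 lower of 27, and NF-kappaB targets 1 higher and 3 lower of 10, each list at low levels. Without shControl1 replicate 2 or either shControl2 sample, 3 integrated stress genes and 2 unfolded protein or heat shock genes were called lower, whereas with libraries scaled by their totals 11 and 10 were. Interferon-stimulated genes called higher numbered 0 without replicate 2 of either hairpin and 1 without shControl2 replicate 1, and NF-kappaB targets called lower numbered 1 without shControl2 replicate 2. Cmpk2, a mitochondrial kinase induced by interferon, had 24.2 and 29.6 CPM in shControl2 and 16.7 and 12.8 CPM in shControl1 (0.87 ± 0.19, lost without replicate 2 of shControl1 or of shControl2 at adjusted p = 0.0512 and 0.0506).

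The immediate early genes, which neurons switch on within minutes of activity, stood highest in 1 control sample and in 1 knockdown sample. Of 21 tested, 10 were lower and 2 higher in shControl2, with a median of −1.80. The summed level of the list was 648 and 653 CPM in shControl2 and 487 and 1396 CPM in shControl1, against 1365 CPM in shAdar2 replicate 1 and 472 to 609 CPM in the other knockdown samples. Fos had 2.91 and 2.42 CPM in shControl2 and 7.65 and 131 CPM in shControl1 (−4.70 ± 1.26, adjusted p = 0.014). Npas4 had 10.4 and 6.80 CPM in shControl2 and 19.3 and 161 CPM in shControl1 (−3.39 ± 0.94, adjusted p = 0.016). Fosb had 0.477 and 0.274 CPM in shControl2 and 1.31 and 59.7 CPM in shControl1 (−6.34 ± 1.88, adjusted p = 0.022).

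The knockdown sample shAdar2 replicate 1 was high at each of these genes, at 66.8 CPM for Fos, 126 CPM for Npas4 and 34.2 CPM for Fosb. Among the control samples, the high one at each of them was shControl1 replicate 2. Without it, 1 gene of the list was called lower and 1 higher, the median was −0.29, and the adjusted p was 0.245 for Fos, 0.262 for Npas4 and 0.423 for Fosb. These 3 calls were also lost without either shControl2 sample, at adjusted p = 0.0747 to 0.144. The list count was also 1 lower without either shControl2 sample, and 12 without shControl1 replicate 1. Bdnf, a neurotrophin, had 11.1 and 10.6 CPM in shControl2 and 25.2 and 88.8 CPM in shControl1 (−2.39 ± 0.57, adjusted p = 0.008, and 0.0557 to 0.0867 without shControl1 replicate 2 or either shControl2 sample). Nr4a2, an orphan nuclear receptor, had 9.97 and 12.0 CPM in shControl2 and 32.3 and 95.2 CPM in shControl1, against 12.1 to 34.1 CPM elsewhere (−2.54 ± 0.46), and its call held without any 1 control sample. Homer1, a postsynaptic scaffold gene with an activity-induced short form, went the other way, with 263 and 280.3 CPM in shControl2 and 161 and 155 CPM in shControl1 (0.78 ± 0.11).

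**Figure D5:**
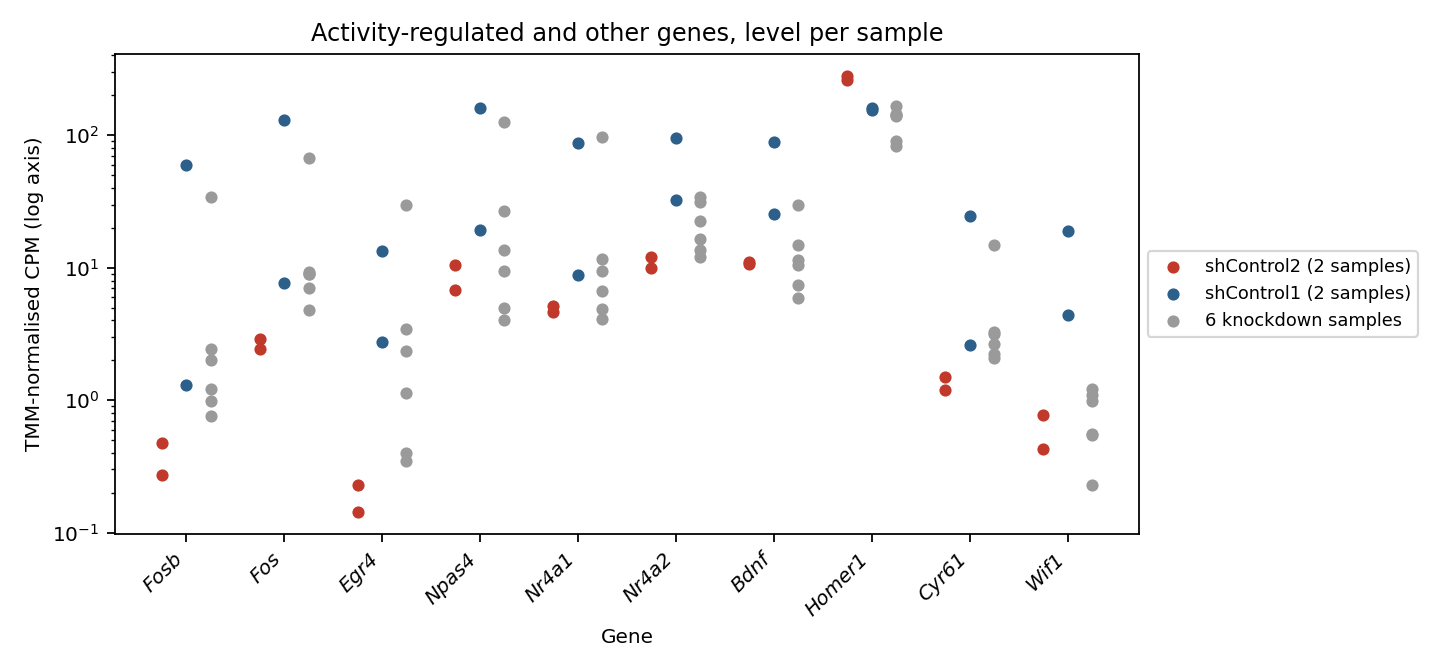
Level of 10 genes in each sample as TMM-normalised CPM on a log axis, with shControl2 (red), shControl1 (blue) and the 6 knockdown samples (grey). For Fosb, Fos, Npas4, Nr4a1 and Cyr61 a single shControl1 sample lies at 24.5 to 161 CPM, and the other shControl1 sample at 1.31 to 19.3 CPM.

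Genes of glutamate receptors were mostly higher. Of 17 genes for AMPA and kainate receptors and their auxiliary subunits, 12 were higher and 0 lower (median 0.68). Gria2, the AMPA receptor subunit that sets calcium permeability and whose transcript is a classic target of editing, had 1532 and 1728 CPM in shControl2 and 818 and 788 CPM in shControl1 (1.02 ± 0.11). Neto2, an auxiliary subunit of kainate receptors, had 737 and 782 CPM in shControl2 and 212 and 140.3 CPM in shControl1, above the 74.5 to 406 CPM of the knockdown samples (2.11 ± 0.26). Gria3 (−0.06), Gria4 (0.17) and Grik2 (0.18) did not pass. Without 1 control sample, 8 to 11 of the 17 were called higher.

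NMDA and metabotropic glutamate receptor genes gave 6 higher and 3 lower of 13 (median 0.48). Grm5, a metabotropic receptor coupled to Gq, had 1153 and 1299 CPM in shControl2 and 408 and 344 CPM in shControl1, above every knockdown sample (1.70 ± 0.12, adjusted p = 2.06e-05). Grm2, a presynaptic metabotropic receptor coupled to Gi, had 7.63 and 6.35 CPM in shControl2 and 21.9 and 38.3 CPM in shControl1 (−2.11 ± 0.24). Grin1, the obligatory NMDA receptor subunit, was lower too (−1.53 ± 0.28). Of 17 GABA and glycine receptor genes, 5 were higher and 0 lower. Gabrg1, a GABA type A receptor subunit, had 58.1 and 61.9 CPM in shControl2 and 16.8 and 16.2 CPM in shControl1 (1.86 ± 0.16). Gabra2, Gabra3, Gabra5 and Gabrb2 lay between −0.0033 and 0.17 and did not pass. The NMDA and metabotropic genes called higher numbered 3 without shControl2 replicate 1, and the GABA and glycine receptor genes 2 without replicate 2 of either hairpin and 3 without shControl1 replicate 1.

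Ion channel and synaptic genes were called in both directions, the synaptic lists at shares near the 43.1% of all genes. Of 31 voltage-gated channel genes, 13 were higher and 6 lower (median 0.28). Cacna1e, the pore of R-type calcium channels, had 539 and 540.1 CPM in shControl2 and 226 and 227 CPM in shControl1 (1.25 ± 0.11). Kcnh7, a potassium channel gene, had 34.9 and 33.6 CPM in shControl2 and 70.9 and 97.0 CPM in shControl1 (−1.29 ± 0.15). Of 28 presynaptic genes, 10 were higher and 3 lower (median 0.28), with the SNARE regulator Cplx2 at 650.2 and 549 CPM in shControl2 and 215 and 164 CPM in shControl1 (1.66 ± 0.14) and the priming factor Unc13c lower (−1.78 ± 0.38). Of 24 postsynaptic genes, 8 were higher and 3 lower (median 0.22), and the adhesion protein gene Lrrtm2 had 157 and 187 CPM in shControl2 and 80.6 and 75.6 CPM in shControl1 (1.14 ± 0.11). Of 29 axon growth and guidance genes, 9 were higher and 7 lower (median 0.01, and −0.18 with libraries scaled by their totals), with Sema3c, a secreted semaphorin, lower (−1.15 ± 0.15) and Efnb2, an ephrin ligand, higher (0.94 ± 0.10). Without shControl1 replicate 2 or shControl2 replicate 2, 6 presynaptic genes were called higher, 1 channel gene lower and 0 or 1 postsynaptic genes lower, and without shControl2 replicate 1, 2 channel genes lower. Axon genes called lower numbered 4 without shControl1 replicate 2. With libraries scaled by their totals, 6 presynaptic genes were higher and 7 lower, and 7 postsynaptic genes were higher and 8 lower.

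Splicing and RNA-binding protein genes were higher at 19 of 40 and lower at 2 (median 0.26, and 0.07 with 10 higher and 4 lower under total scaling). Nova1, a neuronal splicing regulator, had 72.0 and 89.3 CPM in shControl2 and 24.2 and 16.8 CPM in shControl1 (1.98 ± 0.23), and Rbm3, a cold-inducible RNA-binding protein, had 144 and 145 CPM in shControl2 and 66.6 and 62.8 CPM in shControl1 (1.16 ± 0.09). Of 13 long noncoding and nuclear RNAs, 6 were higher and 3 lower (median 0.84). Meg3, an imprinted noncoding RNA, had 7707 and 8259 CPM in shControl2 and 2997 and 3611 CPM in shControl1, against 3707 to 5451 CPM elsewhere (1.27 ± 0.17). Malat1, a nuclear-retained RNA, took 3.39% and 3.75% of counts in shControl2 and 1.65% and 1.86% in shControl1 (1.22 ± 0.18). Neat1, the scaffold of paraspeckles, did not pass (0.81 ± 0.46), and Mirg (−0.99) and Snhg1 (−1.61 ± 0.33) were lower. Without shControl2 replicate 2, 11 splicing genes were called higher, and without shControl1 replicate 2, 12. Without shControl1 replicate 2 or either shControl2 sample, 1 noncoding RNA was called lower.

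Lysosomal genes were lower at 10 of 26 and higher at 2 (median −0.24), a share called near the 43.1% of all genes. The summed level of the list was 2309 and 2266 CPM in shControl2 and 2251 and 2246 CPM in shControl1. Psap, 1 of the 2 called higher, was the largest change of the list. Psap, which encodes prosaposin, the precursor of the saposins that activate sphingolipid breakdown, had 512 and 450.5 CPM in shControl2 and 79.5 and 69.8 CPM in shControl1 (2.69 ± 0.13, adjusted p = 1.33e-05). All 6 knockdown samples lay between 270.2 and 819 CPM, so shControl1 stood apart from the whole series and shControl2 lay among the rest. Its annotated 3' UTR holds neither of the 7-base words above. Gla, the lysosomal alpha-galactosidase, had 3.29 and 3.01 CPM in shControl2 and 11.0 and 16.6 CPM in shControl1, with 6.71 to 11.6 CPM elsewhere (−2.13 ± 0.24), and its 3' UTR holds 1 copy of TCCCGTT. Named genes that hold these words went in both directions. With 1 copy of TCCCGTT each, Dnajb1 was lower and Cmpk2 higher, and with 1 copy of TAATGAT each, Gria2 was higher and Bdnf lower. Atp6v0d1, a proton pump subunit, was lower (−0.99 ± 0.11). The lysosomal genes called lower numbered 4 without shControl2 replicate 2 and 6 without shControl2 replicate 1.

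Most called genes of cholesterol synthesis and of glycolysis were higher in shControl2. The share called was under the 43.1% of all genes for cholesterol synthesis and near it for glycolysis. Of 22 cholesterol synthesis genes, 7 were higher and 0 lower (median 0.36), with Idi1, an isomerase of the isoprenoid pathway, at 323 and 304 CPM in shControl2 and 131 and 83.4 CPM in shControl1 (1.55 ± 0.31). Without 1 control sample, 2 to 5 of them were called higher, with the fewest without shControl1 replicate 2. Of 21 glycolysis genes, 8 were higher and 2 lower (median 0.12, and −0.07 under total scaling), among them Pdk1, a kinase that limits pyruvate oxidation, with 130.0 and 119 CPM in shControl2 and 51.3 and 37.7 CPM in shControl1 (1.48 ± 0.20). Aldoc, named above among the astrocyte markers, is also on that list. The glycolysis genes called higher numbered 5 without shControl1 replicate 1, shControl1 replicate 2 or shControl2 replicate 1.

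Secreted and matrix proteins held some of the widest differences. Of 9 tested Wnt antagonists, 3 were higher and 3 lower, and 1 higher without shControl1 replicate 1 or either shControl2 sample. Dkk3 had 61.1 and 75.1 CPM in shControl2 and 16.4 and 14.1 CPM in shControl1 (2.16 ± 0.19), whereas Dkk2 had 0.239 and 0.0913 CPM in shControl2 and 4.46 and 8.24 CPM in shControl1 (−5.24 ± 0.87, adjusted p = 0.0012). Of 20 matrix genes, 10 were higher and 2 lower (median 0.61). Sparcl1, a matricellular protein made by astrocytes and some neurons, had 837 and 917 CPM in shControl2 and 230.5 and 174 CPM in shControl1 (2.12 ± 0.17), and its relative Sparc had 17.7 and 22.1 CPM in shControl2 and 81.4 and 64.8 CPM in shControl1 (−1.87 ± 0.23). Adamts18, a secreted protease, had 18.2 and 17.8 CPM in shControl2 and 1.61 and 1.03 CPM in shControl1 (3.77 ± 0.25). Of 12 vascular and fibroblast genes, 3 were higher and 3 lower, all of them at low levels. Dcn, the proteoglycan decorin, had 19.3 and 21.7 CPM in shControl2 and 1.08 and 1.26 CPM in shControl1 (4.13 ± 0.64), whereas the collagen gene Col1a1 had 0.382 and 0.137 CPM in shControl2 and 1.77 and 3.57 CPM in shControl1 (−3.36 ± 0.59).

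By size alone, the 10 largest called increases, among genes with 5 CPM or more in the higher group, were those of Gpr17, Dsc3, Trhr, 5830416P10Rik, Nts, Mbnl3, Dcn, Sox10, Cldn1 and 4930467E23Rik, from 3.80 to 6.45 on the log2 scale. The call of 4930467E23Rik was lost without shControl1 replicate 1 or either shControl2 sample, and with DESeq2 (adjusted p = 0.118). Trhr, the receptor for thyrotropin-releasing hormone, had 31.6 and 49.4 CPM in shControl2 and 2.27 and 1.55 CPM in shControl1, against 4.61 to 24.1 CPM elsewhere (4.42 ± 0.29), so shControl2 was the highest group and shControl1 the lowest. Nts, the neuropeptide neurotensin, had 16.51 and 23.5 CPM in shControl2 and 1.27 and 0.934 CPM in shControl1 (4.19 ± 0.55). Dsc3, a desmosomal cadherin, had 13.8 and 18.4 CPM in shControl2 and 0.384 and 0.0644 CPM in shControl1 (6.21 ± 0.70), on 10 and 2 counts in the shControl1 samples.

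The 10 largest decreases were those of Gdf1, Fosb, Egr4, Dkk2, Fos, Wif1, Gm14306, Npas4, Cyr61 and Nr4a1. Gdf1, a growth factor gene that shares a transcript with Cers1, had 0 counts in both shControl2 samples and 1.38 and 26.3 CPM in shControl1, which makes it at least 198-fold lower in shControl2 against a floor of 3 counts over the group, and at least 19.8-fold against shControl1 replicate 1 alone. Its counts depend on how reads of the shared transcript were assigned, the shControl1 samples differ widely, and the call was lost without shControl2 replicate 1 (adjusted p = 0.0626), shControl2 replicate 2 (0.0761) or shControl1 replicate 2 (0.0831). Wif1, a secreted Wnt inhibitor, had 0.429 and 0.776 CPM in shControl2 and 4.42 and 18.8 CPM in shControl1, above the 0.230 to 1.22 CPM of the knockdown samples (−4.26 ± 0.71, adjusted p = 0.0013). Egr4, Fosb, Fos, Npas4, Cyr61 and Nr4a1 were high in shControl1 replicate 2 among the control samples. In shAdar2 replicate 1, Egr4 and Nr4a1 were higher still, at 29.8 and 97.0 CPM against 13.4 and 87.0 CPM in shControl1 replicate 2. Each of the 6 calls was lost without shControl1 replicate 2 and without either shControl2 sample.

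Genes of the sex chromosomes bear on the make-up of the cultures. Xist, the RNA that silences one X chromosome in female cells, had 2726 and 3197 CPM in shControl2 and 1490 and 892 CPM in shControl1 (1.31 ± 0.45, adjusted p = 0.038), a call lost without any 1 control sample (adjusted p = 0.0506 to 0.225). The Y-linked Ddx3y had 58.8 and 63.2 CPM in shControl2 and 18.3 and 37.7 CPM in shControl1 (1.12 ± 0.27, adjusted p = 0.0092, and 0.0567 without shControl2 replicate 2). Kdm5d, Uty and Eif2s3y, which are Y-linked too, did not pass, at 0.51, 0.43 and −0.43. All 4 samples thus held RNA of both male and female cells, and the ratio of the sexes between the hairpins was not tested.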

How the data were processed

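The authors deposited RSEM expected counts (estimated reads per gene) and TPM for each library, and, per the file headers, counts of A and G reads at editing sites. The deposited level of a site is a fraction and matched the share of G reads to 5e-04. The submitters' processing notes name RSEM 1.2.30, STAR 2.5.4b, Trim Galore 0.4.5, DESeq2 1.20.0, SAMtools 1.4 and mm9, without roles. The sources used here do not say how sites were chosen or whether counting used strand, so overlapping and antisense genes are uncertain. Ribosomal RNA was digested with RNase H, per the labels, so RNA without a poly(A) tail is retained.

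Expected counts were rounded, the 3 technical libraries of shAdar2 replicate 1 were summed, genes were filtered with filterByExpr and normalised with TMM, and all 10 samples were fitted with edgeR 4.0.16 (R 4.3.3), which share 1 estimate of the spread. Fold changes are shControl2 over shControl1, and standard errors are the fold change over the square root of F. Sites were tested on A and G reads of the 4 control samples with the same test and a coefficient per library. Levels are per sample, or mean ± SD of 2 samples. Standard errors include the spread between replicates as the fit estimates it, whereas the floor given for Gdf1 covers counting error only. Both tests were checked on simulated data.

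The comparison, the 35 gene lists and the 7-base words were chosen with earlier results of these data known, so counts of list members carry no test and are read against the share of all genes called. Named genes were Adar, Adarb1, Adarb2 and Zfr, the 10 largest changes each way (at least 5 CPM, no overlap), and up to 4 called members of each list with the lowest p plus 1 the other way. Other list members, and the genes shown for the 7-base words, were picked after their values were seen. Named sites were the 8 largest called decreases and the 6 sites with the most reads, 1 per cluster. Differences between replicates were nearly uncorrelated between the hairpins (−0.0645 across genes and 0.0227 across sites). That cannot tell whether replicate numbers paired samples by culture or day, so the main tests used no pairing. Alternatives covered DESeq2 1.42.0, scaling, filters, fits with fewer samples, a replicate block, coverage minimums and each replicate left out, and a beta-binomial test and bias-adjusted deviances were added after seeing the data.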

Additional observations from a re-analysis of the deposited data

How the results depend on the processing

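Of the 6367 gene calls, 2212 (1124 higher and 1088 lower) passed a test against a 1.5-fold change. With 1 control sample left out there were 3574 to 5163 calls, 1820 to 2341 higher and 1754 to 2822 lower. Scaling by library totals gave 2086 higher and 4872 lower. The replicate block with only the 4 control samples gave 7550 calls (3809 higher and 3741 lower), against 7537 for the same 4 samples without the block, and DESeq2 gave 6279. No named gene changed direction. Sites called lower, 95 as reported, were 43 at 50 reads, 1 with no minimum of edited and unedited reads, 6 with the replicate block, 190 by a beta-binomial test, 0 with bias-adjusted deviances and 0 to 8 with 1 control sample left out. Sites called higher, 0 as reported, were 1 at 50 reads, 2 by the beta-binomial test and 0 with 1 control sample left out. The sites tested numbered 989 as reported, 193 at 50 reads and 1858 with no minimum of edited and unedited reads. The counts called lower, such as 43 of 193 at 50 reads, are thus out of different totals. At 10 reads, 88 of 2643 tested sites were called lower, and Fisher's exact test on pooled reads called 134 of 989 lower. The difference in mean level kept its sign under every setting. It was −8.07 percentage points at 10 reads, −4.96 at 50 reads, −5.44 from pooled reads, −7.15 with the deepest site of each cluster, and −6.10 to −6.87 with 1 control sample left out. The log2 odds ratio of the site at chromosome 1, position 94951523 ranged from −0.59 to 0.039 with 1 control sample left out, positive without shControl1 replicate 1. That of the site at chromosome 17, position 39980697 ranged from −0.28 to 0.24, positive without shControl1 replicate 2. Neither was called, and the cause was not tested. With 2 samples a group and a median of 73 to 87 reads per site over both samples, small differences at single sites were below detection.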
